A study of Mus musculus with 6 samples.

Results

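The embryonic globin genes Hba-x, Hbb-y and Hbb-bh1 and the repressor genes Bcl11a, Sox6, Zbtb7a and Myb were followed in sorted erythroid cells of the mouse fetal liver. Each of the 7 genes, taken by symbol for its known role, was found on a single row among the 23094 rows that carry a gene name, and all 7 passed the filter of a mean of at least 1 RPKM. The cells were CD71+Ter119+ (CD71 is the transferrin receptor, Ter119 a red cell lineage antigen), taken at embryonic day 13.5 from C57BL/6 mice labelled Tfam KO (3 libraries) or Tfam WT (3 libraries), and total RNA was sequenced. Tfam encodes a factor that packages and transcribes mitochondrial DNA. The sources used here do not give the deletion allele, a Cre driver or the litters. They also leave unsaid whether each library came from its own embryo, and the p-values below then cover only how far these libraries vary, which may be technical.

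Hemoglobin is built from alpha-like and beta-like globin chains, and the genes of each cluster are used in sequence during development. The first red cells of the embryo, made in the yolk sac and called primitive, use the alpha-like gene Hba-x (zeta globin) and the beta-like genes Hbb-bh1 (beta-H1) and Hbb-y (epsilon-y). In mouse primitive cells Hbb-bh1 is used earlier and Hbb-y later. Red cells that mature in the fetal liver, called definitive, use mainly adult globins, and Bcl11a, Sox6, Zbtb7a and Myb are known for keeping the embryonic genes low there. Primitive red cells still circulate at this stage, and a CD71+Ter119+ sort can hold cells of both origins. In RNA from bulk cells, fewer cells of a type and less RNA per cell cannot be told apart.

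Levels are given in RPKM, reads per kilobase of transcript scaled to the mapped reads of the library. Genes of unlike length can be set side by side only roughly, since WT replicate 3 departed by transcript length, as described below. Tfam itself was at 5.92, 7.22 and 6.25 RPKM in KO replicates 1 to 3, against 7.22, 8.44 and 5.72 RPKM in WT replicates 1 to 3. Those groups overlapped. A value for the whole gene does not separate a deleted part from the rest, so it gives no test of the labels, and each group is named here by its label. The defining erythroid markers were present in all libraries, with Slc4a1, the anion exchanger of the red cell membrane, at 3331 to 4681 RPKM in KO and 3494 to 4164 RPKM in WT. Of the 10 tested erythroid markers 5 were fitted higher in KO and 5 lower, where 47% of all tested rows were higher. In 1, Epor, the groups did not overlap, as in 4.54% of all tested rows. Epor, the erythropoietin receptor, was at 112, 97.7 and 128 RPKM in KO, against 220, 215 and 389 RPKM in WT (log2 fold change -1.23, 95% interval -1.90 to -0.56, unadjusted p = 0.00321, limma adjusted p = 0.909). Without WT replicate 3 it was -0.95, and the part of this difference in the levels of the 7 genes was not tested. Of all tested rows 1.2% had an unadjusted p under 0.05 by limma. WT replicate 3 stood apart from the other libraries. The RPKM sum over all rows was 424377 to 535933 in the KO libraries, against 423263 and 461927 in WT replicates 2 and 1 and 815524 in WT replicate 3. That library also departed from the rest by transcript length. With tested genes split by length into 10 bins, its median deviation from the mean of the 6 libraries was 0.82 on the log2 scale in the shortest bin (median 821 nucleotides) and -0.63 in the longest (median 7914 nucleotides). The embryonic globin transcripts are short (613 to 801 nucleotides) and those of the repressors long (3693 to 8668 nucleotides), so the fold changes of all 7 genes are also given without WT replicate 3.

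Embryonic globin RNA was abundant in every library. Hba-x and Hbb-y varied together, and how far Hbb-bh1 followed them depended on whether the trend on transcript length was removed. Hba-x, the embryonic alpha-like chain, reached 230, 266 and 101 RPKM in KO replicates 1 to 3, against 158, 56.7 and 66.4 RPKM in WT replicates 1 to 3. The KO libraries 1 and 2 were the highest of the 6, and KO replicate 3 lay below WT replicate 1, so the groups overlapped. Hbb-y was at 887, 1107 and 442 RPKM in KO, against 1013, 277 and 240 RPKM in WT. Here too WT replicate 1 lay among the high libraries and KO replicate 3 between them and the low WT libraries 2 and 3. Hbb-bh1 was at 1014, 752 and 907 RPKM in KO, against 1441, 708 and 1221 RPKM in WT. Both extremes of Hbb-bh1 were WT libraries, and all KO libraries lay between them. Among the tested rows Hbb-bh1 lay above 98.5% to 99.5% in every library, Hbb-y above 94.3% to 99.3% and Hba-x above 83.8% to 96.8%. Globin genes resemble each other, and no source used here says how reads that match several of them were counted, so these levels carry that uncertainty.

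**Figure D1:**
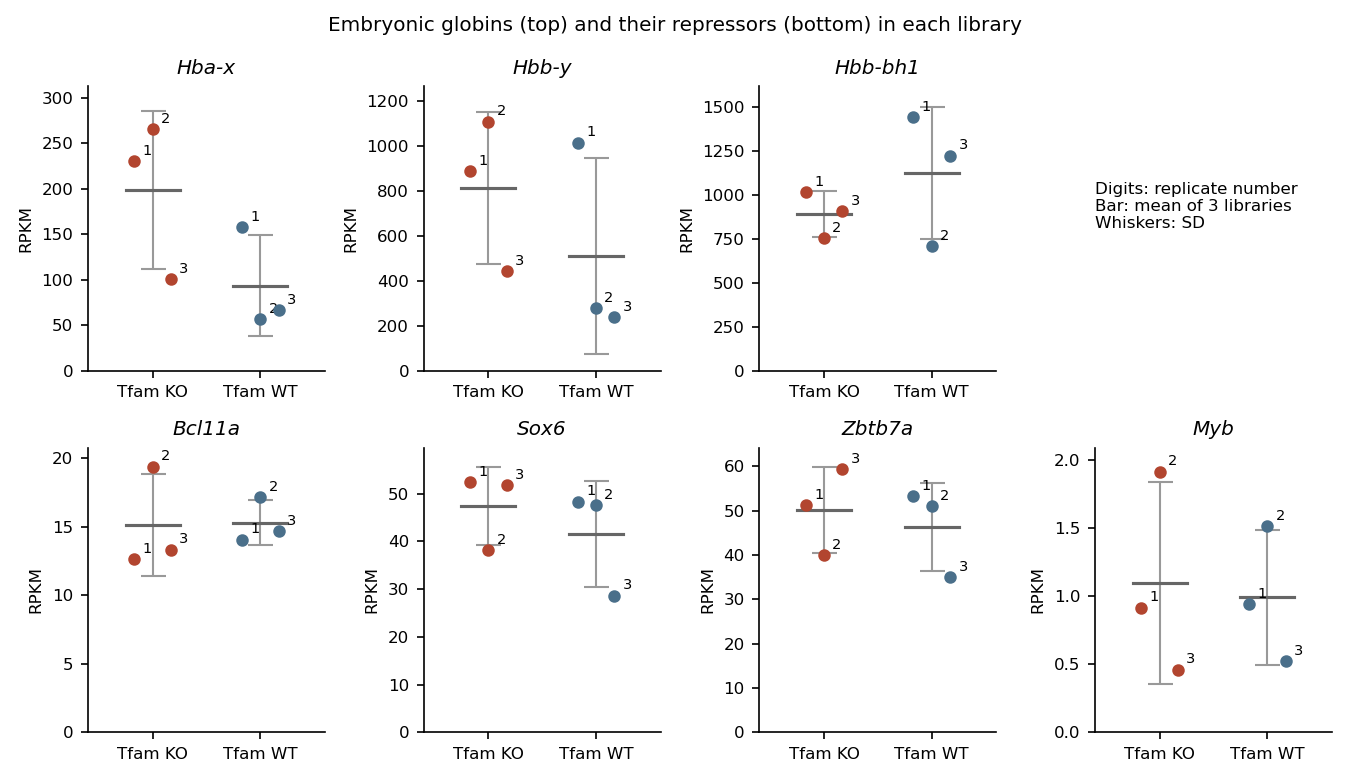
RPKM (linear axes from 0) of the 3 embryonic globins and 4 repressors in each library, Tfam KO left and Tfam WT right, with the mean and SD of 3 libraries and the replicate number beside each point. The groups overlap in every panel, and Hba-x in KO replicates 1 and 2 (230 and 266 RPKM) lies above every WT library.

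The mean of Hba-x was 199 ± 86.8 RPKM in KO and 93.6 ± 55.7 RPKM in WT (SD, n = 3 each), a log2 fold change of 1.12 (95% interval -0.055 to 2.29). The limma adjusted p was 0.909, and the unadjusted p of 0.0590 ranked 118 among the 8302 rows tested. Hbb-y was at 812 ± 339 RPKM in KO and 510 ± 436 RPKM in WT, a log2 fold change of 0.89 (-0.56 to 2.35, limma adjusted p = 0.909). Hbb-bh1 was at 891 ± 132 RPKM in KO and 1124 ± 376 RPKM in WT, a log2 fold change of -0.28 (-1.10 to 0.54, limma adjusted p = 0.909). The 95% intervals of all 3 globins included 0, so no difference was resolved with these libraries. By limma 0 of the 7 genes passed an adjusted p of 0.05, as did 0% of all rows tested. At an unadjusted p under 0.05 there were 0 of 7, against 1.2% of all rows. None of the 7 had KO and WT libraries that did not overlap, against 4.54% of all rows. The fitted value was higher in KO for 5 of the 7, where 47% of all rows were higher, and for 2 of the 7 without WT replicate 3. Libraries with the same replicate number were taken as pairs from a check on these values, not from a label. For number 2 the pairing was weak, with r = 0.17, where WT replicate 2 had r = 0.40 with KO replicate 1. The blocked p-values and pair counts rest on that pairing. In a limma fit with the replicate number as a block Hba-x had an unadjusted p of 0.0241 (adjusted p = 0.715), with 3.9% of all rows under 0.05. Hba-x was higher in KO in each of the 3 same-numbered pairs, as were 10.8% of all rows. Without WT replicate 3 the log2 fold change was 0.95 for Hba-x (-0.25 to 2.15), 0.51 for Hbb-y (-0.83 to 1.86) and -0.19 for Hbb-bh1 (-0.95 to 0.57). Again 0 of 7 passed the limma threshold in that fit, against 0.012% of all rows, and 0 of 7 at an unadjusted p under 0.05, against 2.2%. No gene of the 7 had groups that did not overlap in those 5 libraries, against 11.3% of all rows.

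Hba-x and Hbb-y were among the genes that varied most between libraries of the same label. The highest KO library exceeded the lowest 2.63-fold for Hba-x, 2.50-fold for Hbb-y and 1.35-fold for Hbb-bh1. In WT the same ratio was 2.78 for Hba-x, 4.23 for Hbb-y and 2.04 for Hbb-bh1. The SD within groups on the log2 scale was 0.77 for Hba-x, larger than in 97.4% of the tested rows, and 0.94 for Hbb-y, larger than in 98.4%. For Hbb-bh1 it was 0.41, larger than in 76.8% of rows.

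Across the 6 libraries the level of Hba-x, on chromosome 11, followed that of Hbb-y, on chromosome 7. The Pearson correlation of log2(RPKM + 1) was 0.95 (exact permutation p = 0.0153, adjusted p = 0.160 over the 21 pairs of the 7 genes) and Spearman's rho was 0.89 (exact permutation p = 0.0333, adjusted p = 0.408). Without KO replicate 2 and WT replicate 2, the libraries farthest from the median of Hba-x, r was 0.93. Neither p passed the adjustment. Of 5377 single-gene rows with a mean of at least 5 RPKM, Hbb-y was the gene most like Hba-x, and Hba-x the gene most like Hbb-y. The correlation of Hbb-bh1 with Hba-x was 0.049 (exact permutation p = 0.922, adjusted p = 0.981) and with Hbb-y 0.13 (exact permutation p = 0.792, adjusted p = 0.981), and its rank in likeness was 1877 for Hba-x and 1807 for Hbb-y. With the trend on transcript length removed from each library, r was 0.65 for Hbb-bh1 with Hba-x and 0.77 for Hbb-bh1 with Hbb-y. For Hba-x with Hbb-y it was 0.97, so the contrast between the pairs was smaller on that scale. That step shifts these short transcripts alike, which by itself can raise r between them. In WT replicate 3 the log2 deviation from the 6-library mean moved from -0.89 to -1.74 for Hba-x. For Hbb-y it moved from -1.21 to -2.18, and for Hbb-bh1 from 0.32 to -0.66. The part of this shift in the smaller contrast was not tested. Hbb-y and Hbb-bh1 are neighbours in the beta globin cluster, and the difference between their correlation and that of Hba-x with Hbb-y was not tested.

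**Figure D2:**
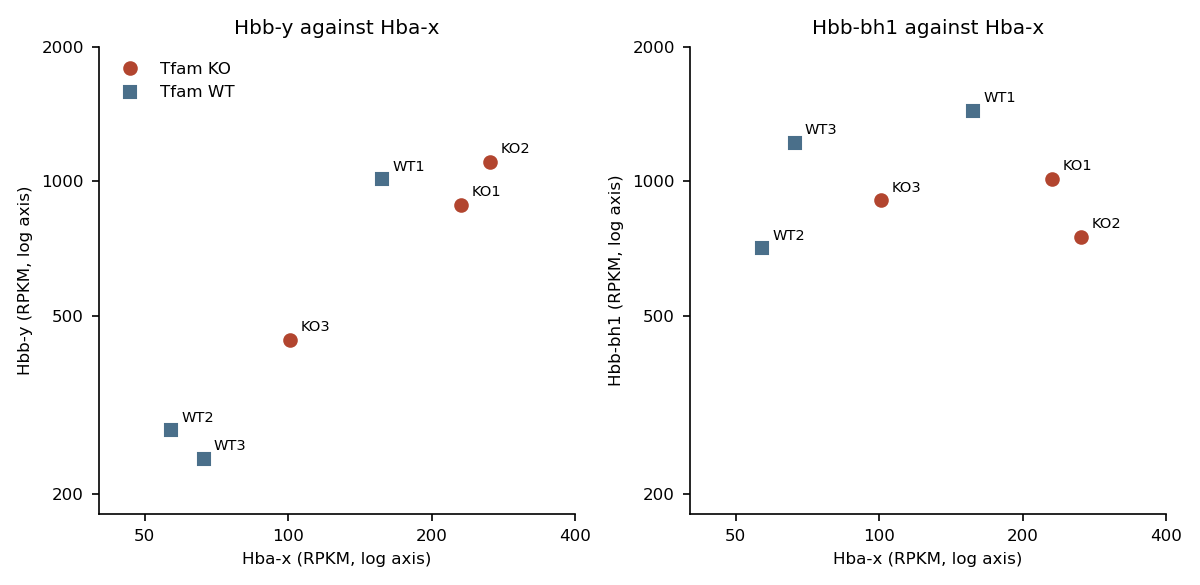
Hbb-y (left) and Hbb-bh1 (right) against Hba-x, in RPKM on log axes, 1 point for each of the 6 libraries (red circles Tfam KO, blue squares Tfam WT). Hbb-y goes up with Hba-x from WT replicates 2 and 3 to KO replicates 1 and 2 (r = 0.95), and Hbb-bh1 shows no such order in the deposited values (r = 0.049, or 0.65 with the length trend removed).

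The makeup of the embryonic globin RNA differed between libraries, as did its total. The summed level of the 3 genes was 2132, 2125 and 1450 RPKM in KO replicates 1 to 3, against 2612, 1042 and 1527 RPKM in WT replicates 1 to 3. The sum was highest and lowest in WT libraries, and the groups overlapped. Of the beta-like RNA (Hbb-y plus Hbb-bh1), Hbb-y made up 46.6%, 59.6% and 32.8% in KO, against 41.3%, 28.1% and 16.4% in WT. KO replicates 1 and 2 had the largest shares, and KO replicate 3 lay below WT replicate 1. The mean share was 46.3 ± 13.4% in KO and 28.6 ± 12.4% in WT (SD, n = 3 each), or 34.7% in WT without WT replicate 3.

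Relative to beta-like RNA, Hba-x was higher in each KO library than in any WT library. Its RPKM was 12.1%, 14.3% and 7.47% of the beta-like sum in KO, against 6.42%, 5.76% and 4.55% in WT. The groups did not overlap, with means of 11.3 ± 3.48% in KO and 5.58 ± 0.951% in WT, or 6.09% in WT without WT replicate 3. Among single tested rows 4.54% had groups that did not overlap, and the share for ratios of other genes was not computed. Hba-x against Hbb-y alone gave 26.0%, 23.99% and 22.8% in KO and 15.6%, 20.5% and 27.7% in WT, which overlapped. A ratio of genes from the list was not given a p-value, and these ratios were chosen with the levels known. All genes in them have short transcripts, and the part of the length pattern of WT replicate 3 in the ratios was not tested.

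**Figure D3:**
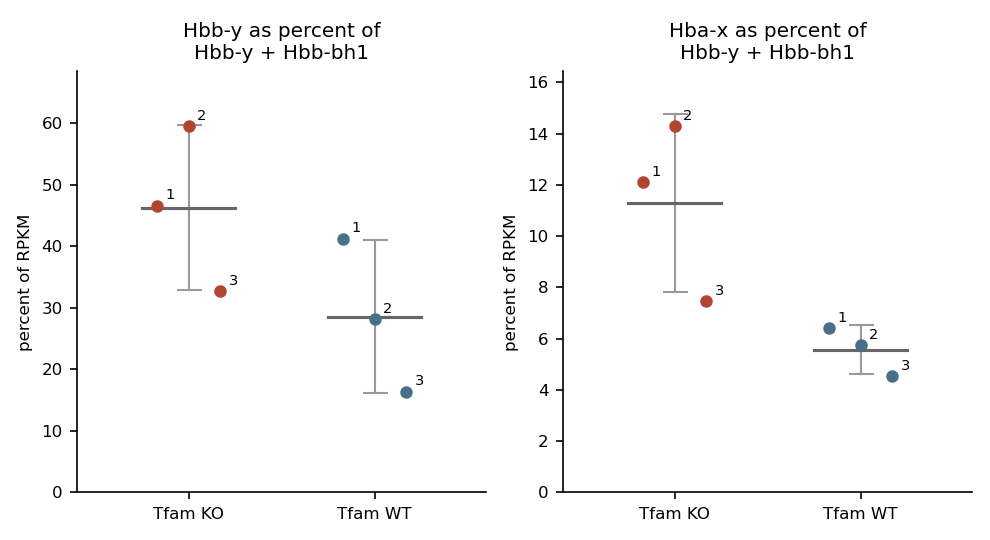
Percent of beta-like RPKM (Hbb-y + Hbb-bh1) held by Hbb-y (left) and the RPKM of Hba-x as percent of that sum (right) in each library, with the mean and SD of 3 libraries and the replicate number, Tfam KO left and Tfam WT right. For Hba-x the lowest KO library (7.47%) lies above the highest WT library (6.42%), while for Hbb-y KO replicate 3 (32.8%) lies below WT replicate 1 (41.3%).

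The upstream sequences of the genes that varied together are shown to let their short motifs be compared. They are the 250 bases before the start of each gene, from RefSeq with build GRCm38.p6, which is not the mm9 build named for the RPKM values. Hba-x lies on the plus strand at chr11:32276350-32276599 and Hbb-y on the minus strand at chr7:103853208-103853457. Capitals mark matches, on either strand, to TGACCA (a motif known for BCL11A), CACCC (bound by KLF1 and related factors), GATA (bound by GATA1), CCAAT (bound by NF-Y) and TATAAA (the TATA box).
Hba-x: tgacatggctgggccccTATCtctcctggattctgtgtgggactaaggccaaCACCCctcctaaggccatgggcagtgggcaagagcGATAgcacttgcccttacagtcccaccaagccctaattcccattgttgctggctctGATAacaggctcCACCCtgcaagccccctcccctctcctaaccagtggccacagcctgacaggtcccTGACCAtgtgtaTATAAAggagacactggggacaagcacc
Hbb-y: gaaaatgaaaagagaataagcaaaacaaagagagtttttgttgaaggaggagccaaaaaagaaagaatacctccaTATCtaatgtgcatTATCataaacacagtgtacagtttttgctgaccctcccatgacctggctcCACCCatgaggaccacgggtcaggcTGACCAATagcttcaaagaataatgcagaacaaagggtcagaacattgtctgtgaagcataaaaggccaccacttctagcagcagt

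TGACCA stands at positions -40 to -35 from the start of Hba-x and at -86 to -81 from that of Hbb-y, where it overlaps CCAAT (-83 to -79). Of 32817 upstream windows of this length, 11.4% hold TGACCA on either strand. Hba-x has 2 matches to CACCC and 3 to GATA, and Hbb-y has 1 and 2. CACCC occurs in 52.0% of windows, GATA in 53.6% and CCAAT in 33.8%. TATAAA is matched in Hba-x at -28 to -23, and 12.4% of windows hold it. A match describes the letters only, and RNA levels do not show whether a factor was bound.

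The adult alpha and beta globin rows (Hba-a1 and Hba-a2 on shared rows, Hbb-b1 and Hbb-b2 on another) were listed at 0 in all 6 libraries. Such a listed 0 can be a failed estimate, so the share of embryonic globin in all globin RNA was not computed. The theta globin Hbq1b, an alpha-like gene that shares its cluster with Hba-x, reached 145, 136 and 175 RPKM in KO replicates 1 to 3, against 155, 138 and 295 RPKM in WT. All KO libraries lay below WT replicate 3, and the log2 fold change was -0.29 (limma adjusted p = 0.909), or 0.047 without that library. Unlike Hba-x, Hbq1b was not highest in KO replicates 1 and 2. Hbb-bh2, a further beta-like gene of the cluster, was near the filter, at 1.06 to 1.27 RPKM in KO and 0.581 to 1.87 RPKM in WT.

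The 4 repressor genes were expressed under both labels, with log2 fold changes between -0.037 and 0.21, all within the spread between libraries. Bcl11a, a zinc finger protein that silences embryonic globins, reached 12.6, 19.4 and 13.3 RPKM in KO replicates 1 to 3, against 14.1, 17.1 and 14.7 RPKM in WT replicates 1 to 3. Replicate 2 was the highest library under both labels, and the WT libraries lay within the KO range. The means were 15.1 ± 3.72 RPKM in KO and 15.3 ± 1.63 RPKM in WT, a log2 fold change of -0.037 (-0.50 to 0.43, limma adjusted p = 0.960). Without WT replicate 3 it was -0.062 (-0.52 to 0.39).

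Sox6, a transcription factor that represses Hbb-y in definitive cells, was at 52.4, 38.1 and 51.7 RPKM in KO, against 48.3, 47.7 and 28.6 RPKM in WT. WT replicate 3 was the lowest library and KO replicate 2 the next lowest, and the groups overlapped. With all libraries the log2 fold change was 0.21 (-0.39 to 0.81, limma adjusted p = 0.909), and without WT replicate 3 it was -0.031 (-0.43 to 0.37). Zbtb7a, which encodes the repressor LRF, was at 51.2, 40.1 and 59.4 RPKM in KO, against 53.2, 51.0 and 35.0 RPKM in WT. It had the same low libraries as Sox6, with a log2 fold change of 0.12 (-0.43 to 0.67, limma adjusted p = 0.912) and, without WT replicate 3, of -0.070 (-0.49 to 0.35). Sox6 and Zbtb7a were at like levels, and their order differed between libraries.

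Myb, a transcription factor of hematopoietic progenitors that is turned down as erythroblasts mature, was at 0.915, 1.91 and 0.461 RPKM in KO, against 0.942, 1.51 and 0.522 RPKM in WT. Replicate 2 was highest and replicate 3 lowest under both labels. The mean over the 6 libraries was 1.04 RPKM, just above the filter of 1, and both groups had libraries on either side of it. The log2 fold change was 0.045 (-0.66 to 0.75, limma adjusted p = 0.967), and -0.13 without WT replicate 3 (-0.81 to 0.54). Markers of hematopoietic stem and progenitor cells were low, with all 8 rows below the filter. Their summed level was 1.25, 1.73 and 0.543 RPKM in KO, against 1.20, 1.20 and 0.431 RPKM in WT. This sum had its highest and lowest KO library in the same replicates as Myb, and its part in the Myb level was not tested.

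**Figure D4:**
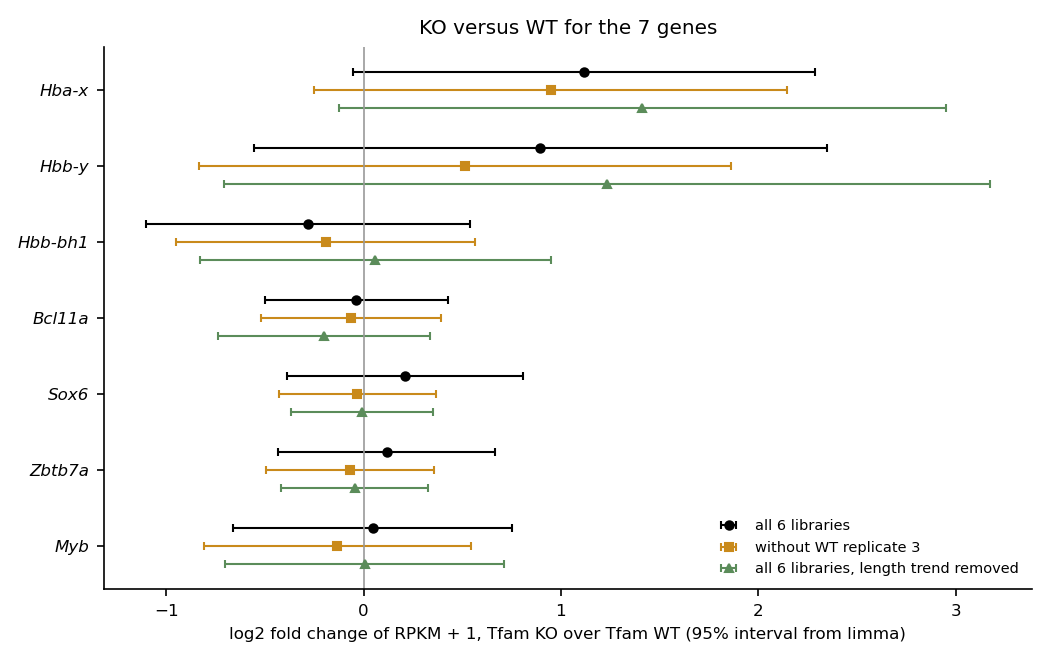
Log2 fold change of RPKM + 1, Tfam KO over Tfam WT, with 95% limma intervals for the 7 genes with all 6 libraries (black), without WT replicate 3 (orange) and with the trend on transcript length removed (green). Every interval includes 0, and the intervals of Hba-x (-0.055 to 2.29) and Hbb-y (-0.56 to 2.35) are the widest with all libraries.

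In WT replicate 3 the repressors Sox6 and Zbtb7a deviated as other genes of their length did, and Hba-x and Hbb-y deviated the other way. Sox6 was 0.59 below its mean over the 6 libraries on the log2 scale (deviation -0.59), where the 500 tested genes nearest in length had a median of -0.65, and Zbtb7a was at -0.43, where its length neighbours were at -0.47. Bcl11a was at -0.032 against -0.47 for its neighbours, and Myb at -0.38 against -0.13. Hbb-bh1 was at 0.32, where its neighbours were at 0.89. Hba-x was at -0.89 and Hbb-y at -1.21, where genes of like length were at 0.83 and 0.89. With the trend on length removed in each library, the log2 fold change was 1.41 for Hba-x (-0.13 to 2.95, limma adjusted p = 0.964), 1.23 for Hbb-y and 0.059 for Hbb-bh1. That of the repressors was -0.20 for Bcl11a, -0.0075 for Sox6, -0.046 for Zbtb7a and 0.0052 for Myb. None of the 7 genes passed in that fit by limma, and 0 had an unadjusted p under 0.05, where 154 of all 7932 rows did. With the replicate block added, both Hba-x (unadjusted p = 0.00247, limma adjusted p = 0.636) and Hbb-y (unadjusted p = 0.0229, limma adjusted p = 0.645) did. In that blocked fit so did 581 of all 7932 rows, and the pairing behind the block was read from these same values.

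**Figure D5:**
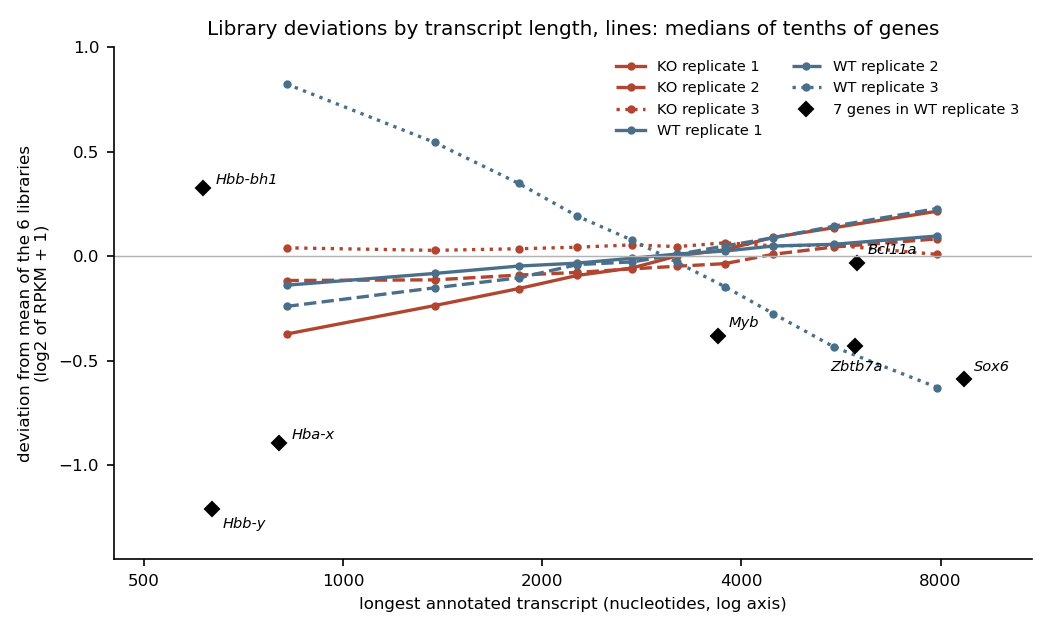
Deviation from the mean of the 6 libraries in log2(RPKM + 1), against the longest annotated transcript (log axis). Lines join the medians of 10 bins of tested genes in each library (red Tfam KO, blue Tfam WT), and diamonds are the 7 genes in WT replicate 3, where Hba-x (-0.89) and Hbb-y (-1.21) lie far below the line of that library (0.82 in the shortest bin).

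By the same measure of likeness over the 6 libraries, the genes nearest to Hba-x after Hbb-y were Pkm, the glycolytic enzyme pyruvate kinase (r = 0.94), and Vimp (r = 0.94). Nearest to Hbb-y after Hba-x were Bin2 (0.92) and Actr1b, an actin-related subunit of dynactin (0.92). Nearest to Hbb-bh1 were Myd88, an adaptor of innate immune signalling (0.94), the translation initiation factor Eif5b (0.94) and the lariat debranching enzyme Dbr1 (0.94). For Bcl11a they were Thoc1 of the mRNA export complex THO (0.98), C1qbp (0.97) and Elac2, a tRNA processing enzyme (0.96). For Sox6 they were Ppp4r2, a phosphatase subunit (0.997), the red cell skeleton protein Sptb (0.996) and St3gal1, a sialyltransferase (0.995). For Zbtb7a they were C330027C09Rik (0.997), the ubiquitin ligase Hace1 (0.99) and Wasf2, an actin regulator (0.99). For Myb they were the mitochondrial ATPase Atad3a (0.98), the folate enzyme Mthfd1 (0.98) and the mitochondrial chaperone Hspd1 (0.97). With so few libraries many genes reach such values, and the points share the library effects described above.

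Sox6 and Zbtb7a were correlated at r = 0.95 (exact permutation p = 0.0125, adjusted p = 0.160 over 21 pairs; rho 0.83, exact permutation p = 0.0583, adjusted p = 0.408). Without KO replicate 2 and WT replicate 3, the libraries farthest from the median of Sox6, r was 0.40, so in the deposited values the relation rests on those libraries. With the length trend removed and all 6 libraries kept, r was 0.96. In the deposited values no repressor was correlated with an embryonic globin at an adjusted p of 0.05 by exact permutation. Bcl11a gave r = 0.015 with Hba-x (exact permutation p = 0.981, adjusted p = 0.981), 0.019 with Hbb-y (exact permutation p = 0.972, adjusted p = 0.981) and -0.61 with Hbb-bh1 (exact permutation p = 0.199, adjusted p = 0.904). With the length trend removed these were -0.48, -0.54 and -0.79. Myb gave r = -0.59 with Hbb-bh1 (exact permutation p = 0.215, adjusted p = 0.904), and -0.032 with the length trend removed. On that scale r with Hba-x was -0.37 for Sox6, -0.42 for Zbtb7a and 0.40 for Myb (0.25, 0.049 and 0.36 in the deposited values). With Hbb-bh1 it was 0.11 for Sox6 and 0.13 for Zbtb7a. In WT replicate 3 that step lowered the short globins and raised the long repressors, which by itself can lower r between them. No p-value was computed with the length trend removed.

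Partners and other regulators of the globin loci were read from 6 lists. Of 58 tested rows, 22 were fitted higher in KO and 36 lower, and 0 passed the limma test (0 at an unadjusted p under 0.05). Their median log2 fold change was -0.074, against -0.019 over all tested rows, and without WT replicate 3 it was -0.046, against -0.013. In 4 of the 58 rows (6.90%) the groups did not overlap, where the share over all rows was 4.54%.

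BCL11A and LRF recruit corepressor complexes such as NuRD, and all 18 genes listed for these were tested. In KO 7 of them were fitted higher and 11 lower. Mta1, a NuRD subunit, was at 12.7, 12.7 and 14.0 RPKM in KO, against 9.77, 12.5 and 11.3 RPKM in WT (log2 fold change 0.22, limma adjusted p = 0.909). Kdm1a, the histone demethylase LSD1, was at 21.0, 20.5 and 21.4 RPKM in KO, against 21.7, 22.7 and 23.3 RPKM in WT (-0.10, limma adjusted p = 0.909). The groups did not overlap in either gene, and the gap for Kdm1a was small.

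Among the TR2/TR4 repressor and chromatin silencing factors, 3 of 7 tested genes were fitted higher in KO and 4 lower, and the groups overlapped in each. Of the 17 activators and looping factors, 5 were fitted higher and 12 lower. Usf1, a factor that binds E-box sites, was at 6.25, 6.09 and 5.59 RPKM in KO, against 6.39, 6.64 and 10.3 RPKM in WT (-0.31, limma adjusted p = 0.909, and -0.11 without WT replicate 3). The groups did not overlap, and the largest value was that of WT replicate 3.

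Of the regulators of developmental timing, 7 of 9 tested rows were fitted higher in KO and 2 lower, and without WT replicate 3 the number fitted higher was 4. Hmga2, a chromatin protein of fetal stem cells, was at 2.18, 3.31 and 2.12 RPKM in KO, against 1.93, 1.69 and 0.954 RPKM in WT (log2 fold change 0.49, limma adjusted p = 0.909, and 0.32 without WT replicate 3). The groups did not overlap, and KO replicate 2 was the highest library. Lin28b, an RNA-binding protein of fetal hematopoiesis, was at 5.83, 6.59 and 5.34 RPKM in KO, against 6.36, 7.15 and 2.27 RPKM in WT. Only WT replicate 3 was low, and the log2 fold change of 0.25 (limma adjusted p = 0.909) turned to -0.17 without it.

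Around the alpha globin cluster, all 4 tested neighbours were fitted lower in KO, and 2 of them without WT replicate 3. Nprl3, the gene whose introns hold the main alpha globin enhancers, was at 40.5, 35.6 and 44.5 RPKM in KO, against 47.6, 40.5 and 59.9 RPKM in WT, and the groups overlapped (log2 fold change -0.28, limma adjusted p = 0.909). Rhbdf1, an inactive rhomboid protein and another listed neighbour of the cluster, was below the filter. It was at 1.76, 1.55 and 0.494 RPKM in KO, against 0.341, 0.441 and 0.280 RPKM in WT, and the groups did not overlap (exact two-sided permutation test, p = 0.1, the smallest possible with 3 against 3). The share of rows below the filter whose groups did not overlap was not computed. KO replicates 1 and 2, the libraries with the most Hba-x, also had the most Rhbdf1. The other listed neighbours did not share this order. Snrnp25 (300 RPKM), Mpg (37.7 RPKM) and Nprl3 were highest in WT replicate 3. Luc7l was highest in KO replicate 2 (22.6 RPKM), and Itfg3, below the filter, in WT replicate 1 (0.516 RPKM). Nprl3, Lin28b, Hbq1b, Hbb-bh2, Rhbdf1, Epor and Cd5l were chosen for the text after their values were seen.

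Transcripts of other cell types differed between libraries as well. Hepatocyte markers (8 of 8 rows above 0, led by Afp at 35.8, 59.1 and 4.72 RPKM in KO and 35.7, 21.7 and 11.6 RPKM in WT) summed to 81.2, 136 and 14.8 RPKM in KO, against 85.2, 55.3 and 39.1 RPKM in WT. KO replicate 2 was the highest for these markers, as it was for Hba-x and Hbb-y, and KO replicate 3 was the lowest. Over the 6 libraries the correlation of Afp was 0.66 with Hba-x (rank 105 of 5377 in likeness), 0.69 with Hbb-y (rank 126) and -0.068 with Hbb-bh1 (rank 3440). Megakaryocyte markers (7 single-gene rows, led by Pf4 at 1.17 to 26.8 RPKM in KO and 4.67 to 24.2 RPKM in WT) summed to 49.5, 68.7 and 18.6 RPKM in KO, against 58.5, 56.9 and 33.8 RPKM in WT. Macrophage markers (9 of 10 rows above 0, with Cd163 at 0, led by C1qb at 1.34 to 2.56 RPKM in KO and 2.66 to 6.05 RPKM in WT) summed to 4.55 to 11.7 RPKM in KO, against 12.2 to 18.7 RPKM in WT. Of 6 tested macrophage markers 6 were fitted lower in KO, and in 4 the groups did not overlap, where 47% of all rows were fitted higher and 4.54% did not overlap. The lowest unadjusted p among them was that of Cd5l, a secreted macrophage protein, at 0.508, 0.830 and 0.342 RPKM in KO, against 1.78, 1.73 and 2.07 RPKM in WT (log2 fold change -0.88, unadjusted p = 0.00119, limma adjusted p = 0.909). By limma 1.2% of all tested rows had an unadjusted p under 0.05. Neutrophil and myeloid progenitor markers (8 rows, led by S100a8 at 10.8 to 28.5 RPKM in KO and 15.3 to 83.6 RPKM in WT) summed to 28.6 to 74.2 RPKM in KO, against 39.2 to 173 RPKM in WT. B lymphoid markers, of interest because Bcl11a is also a B cell gene, summed to 0.109 to 0.339 RPKM in KO, against 0.159 to 0.746 RPKM in WT, with the defining genes Ebf1 and Pax5 at 0. The part of the hepatocyte, megakaryocyte, macrophage and myeloid transcripts in the globin levels was not tested.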

How the data were processed

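The authors deposited 1 table of RPKM values for the 6 libraries, made from total RNA. TopHat and Cufflinks with build mm9 are named per the submitters' processing notes, but their versions, the annotation, filters and strand setting were not given in the sources used here. Values scaled by transcript length and mapped reads move with length where a library recovers long transcripts poorly. Of 23119 rows, 25 with a number for a name (mean 0.158% of the RPKM sum) were left out.

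limma 3.58.1 in R 4.3.3 compared KO with WT on log2(RPKM + 1), unblocked, letting the prior variance follow the mean level, and p-values were adjusted by Benjamini-Hochberg over the 8302 rows with a mean of at least 1 RPKM. Fold changes on this scale understate those of low genes. The test was checked on simulated data with independent noise in each gene. That check held none of the library or length effects seen here, so it does not cover them. Absolute read depth is unknown. Ratios of values below 0.05 RPKM to WT replicate 2 lay within 0.03 (log2) of whole-read steps for 72.8% of rows in WT replicate 1, 39.9% in KO replicate 1, 72.0% in KO replicate 2 and 75.4% in KO replicate 3, giving relative depths of 88.9%, 91.7%, 84.4% and 79.0%, and for 17.2% in WT replicate 3, whose depth was not resolved. No intervals on single values can be given. Lengths (longest transcript, GENCODE vM21 by symbol) matched 99.5% of 7968 tested single-gene rows. The length trend was removed by loess per library, an alternative chosen after the data were seen.

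The genes, lists and tests were chosen with earlier results of these data known. The text names the 7 genes, Tfam, the 3 genes most correlated with each (mean of at least 5 RPKM, small RNAs left out), tested single-gene members of the pathway lists with no overlap between groups (up to 3 a list), the highest tested marker of each cell type, and others as stated. Same-numbered libraries' deviations from group means correlated at 0.46, 0.17 and 0.53 for numbers 1, 2 and 3, each above 0.1, so the numbers were taken to pair libraries, from this check and not from a label. The pairing of number 2 was the weakest, since WT replicate 2 correlated at 0.40 with KO replicate 1. Figures were drawn with matplotlib 3.10.9 in Python 3.11.15.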

Additional observations from a re-analysis of the deposited data

How the results depend on the processing

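With 3 libraries a group and no counts, depth limits could not be computed. Over 16 other settings, none of the 7 genes passed the limma threshold in any of their 111 refits (lowest adjusted p 0.636), and Hba-x and Hbb-y kept a positive log2 fold change in each. The number of genes past the threshold was 0, and 0 to 2 when single libraries were left out, all of them small RNA genes. It was 1 with the length trend removed and WT replicate 3 left out. With the replicate block 0 genes passed, the call of no gene in the text changed, and Hba-x had an unadjusted p of 0.0241 (adjusted p 0.715), where 3.9% of all rows were under 0.05. With single libraries left out, log2 fold changes ranged from 0.84 to 1.56 for Hba-x, 0.51 to 1.55 for Hbb-y, -0.58 to -0.072 for Hbb-bh1, -0.22 to 0.073 for Bcl11a, -0.031 to 0.36 for Sox6, -0.070 to 0.27 for Zbtb7a and -0.22 to 0.28 for Myb. The difference in the summed globin level, KO minus WT, ranged from -167.3 to 618 RPKM, and was negative without WT replicate 2. The difference in Hba-x relative to beta-like RNA ranged from 4.22 to 7.63 percentage points and that in the Hbb-y share from 11.1 to 24.5. The groups of the Hba-x ratio did not overlap, so leaving out a single library could not turn the sign of its difference.

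With the length trend removed, with and without the block, the sign turned for Hbb-bh1 (0.059), Sox6 (-0.0075), Zbtb7a (-0.046), Hbq1b (0.065) and Slc4a1 (-0.055), and without WT replicate 3 as well for Zbtb7a (-0.039), Myb (-0.12), Lin28b (-0.14), Slc4a1 (-0.013), Afp (-0.31) and S100a8 (0.22). Myb turned to -0.043 with quantile normalization. Leaving out single libraries turned the sign of 7 further genes, with ranges of -0.24 to 0.0032 for Tfam, -0.50 to 0.047 for Hbq1b, -0.17 to 0.49 for Lin28b, -0.075 to 0.17 for Slc4a1, -0.59 to 1.10 for Afp, -1.15 to 0.69 for Pf4 and -0.90 to 0.29 for S100a8. With the length trend removed, the correlation with Hbb-bh1 turned for Eif5b (-0.40) and that with Bcl11a for C1qbp (-0.018), and r between members moved to 0.65 for Hba-x with Hbb-bh1, 0.77 for Hbb-y with Hbb-bh1, -0.99 for Sox6 with Myb (0.059 in the deposited values) and -0.92 for Zbtb7a with Myb (-0.16). On the same scale r for Bcl11a moved to -0.48 with Hba-x (0.015 in the deposited values) and -0.54 with Hbb-y (0.019). For Hba-x it moved to -0.37 with Sox6 (0.25) and -0.42 with Zbtb7a (0.049). The causes were not tested.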
